A study of Arabidopsis thaliana with 4 samples.

Results

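UDP-glycosyltransferases join a sugar, most often glucose taken from UDP-glucose, to small acceptor molecules such as hormones, flavonols, monolignols, glucosinolate precursors and foreign compounds. The sugar changes the solubility and activity of the acceptor and often marks it for storage in the vacuole. In leaves these enzymes set the balance between free and conjugated salicylic acid, abscisic acid, auxin and cytokinin, and many are counted among the detoxification genes. Family numbers group the enzymes by protein sequence, and a letter marks the subfamily.

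The family was taken as every gene whose symbol in the platform annotation begins UGT and a digit, with a probe set of its own, and without the anthocyanin enzymes UGT75C1 and UGT78D2. This gave 46 genes in 11 families with numbers between 71 and 88, among 13356 genes with a probe set of their own. Each of the 46 had a single such probe set, so no choice between probe sets arose, and no brightness limit was set for membership.

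RNA came from full-grown source leaves of non-flowering wild type Arabidopsis thaliana, ecotype Col-0, raised under 14 h days and 10 h nights. Leaves were detached when the day ended and stood in darkness for 13 h with the petiole in MES buffer (2 mM), which held 100 mM sorbitol in the control group and 100 mM sucrose in the other. Each group had 2 Affymetrix ATH1 arrays, called here sorbitol 1, sorbitol 2, sucrose 1 and sucrose 2, and pair 1 and pair 2 are the differences between arrays of the same number. Whether the 2 replicates of a group were separate plants or harvests is not stated in the labels, so errors and p-values reflect array-to-array spread alone and that spread may be technical. Leaves taken at the start of the incubation were not analysed here. An array of a whole leaf also cannot tell fewer cells of a type from less RNA per cell.

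The question was which of these genes differed between sucrose-fed and sorbitol-fed leaves. Values are MAS5 intensities on a linear scale, and log2 changes are sucrose minus sorbitol. Of the 46 genes, 25 had a mean log2 value above the limit of 4.22 (an intensity of 18.6) and were tested with 13648 probe sets in all, and 21 lay below it and are described without a test. UGT85A3, at 4.23, was the dimmest gene tested, and UGT76C2, at 3.92, the brightest one left out. The highest of 27 Bacillus control probe sets, 9.3, served as the control level. Of the 25 tested genes 23 lay above it on all 4 arrays, whereas 7 of the other 21 lay at or below it on every array.

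No gene of the family passed limma's test at an adjusted p under 0.05, 0 of 25 higher and 0 of 25 lower, where 0.366% of all tested probe sets were called higher and 0.923% lower. At an unadjusted p under 0.05, 2 of the 25 were higher (UGT73B5 and UGT78D1) against 9.85% of all probe sets, and 2 were lower (UGT88A1 and UGT76C1) against 10.8%. The limma adjusted p ranged from 0.143 for UGT88A1 to 0.956 for UGT85A4, and the standard errors of the changes from 0.29 to 1.97 with a median of 0.41. A gene that missed the threshold is not thereby shown to be the same in both sugars. The mean change lay within 1 log2 unit of 0 for 20 of the 25.

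Among the 25, 14 were higher and 11 lower in mean, while over all 46 genes, dim ones included, 29 were higher and 17 lower. The 25 had a median change of 0.22 (-0.06 in pair 1, 0.26 in pair 2) beside 0.02 over all tested probe sets (0.00 and 0.01). For 8 of 25 genes the lower sucrose value exceeded the higher sorbitol value, which is 32.0%, where 26.1% of all tested probe sets had this order, and 7 of 25, or 28.0%, had the opposite order, against 26.2%. Both shares lay near those of all probe sets. A difference of at least 2-fold in both pairs was seen upward in 3 of 25 genes (UGT73B5, UGT76B1 and UGT76E12) against 4.62% of all tested probe sets, and downward in UGT88A1 alone against 5.52%.

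**Figure D1:**
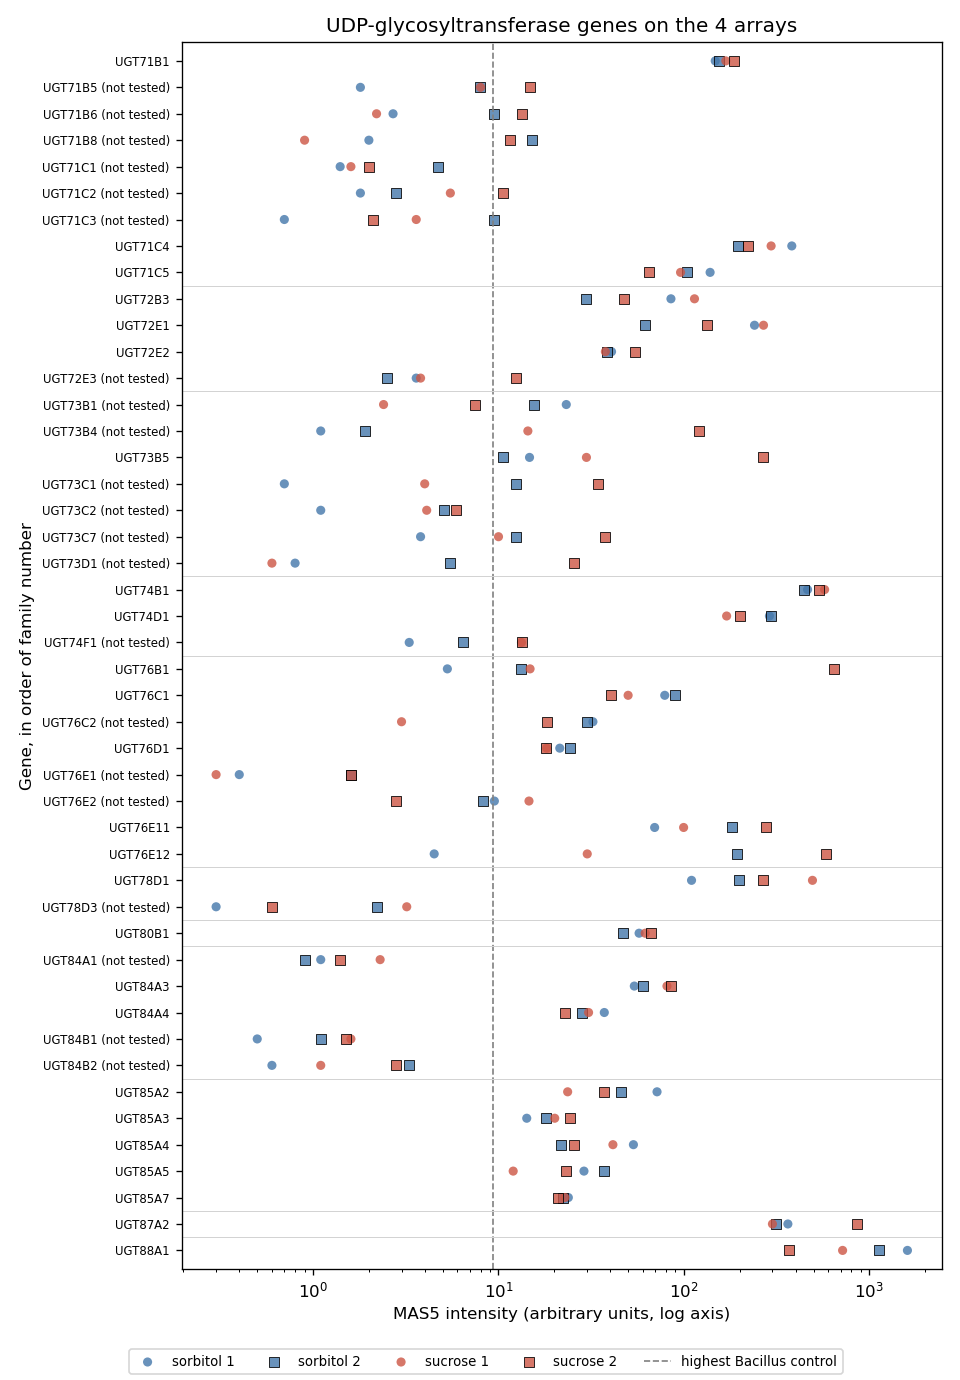
MAS5 intensity (arbitrary units, log axis) of each of the 46 genes on the 4 arrays, in order of family number; circles are replicate 1, squares replicate 2, blue sorbitol and red sucrose, and the dashed line is the control level of 9.3. UGT88A1 was lower and UGT78D1 higher on both sucrose arrays, while UGT73B5 and UGT76B1 were far higher on sucrose 2 than on any other array.

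Family 73 held several stress-linked enzymes. UGT73B5 (AT2G15480) is known from resistance to bacterial infection and the control of redox status. The sorbitol arrays 1 and 2 gave intensities of 14.7 and 10.6, and the sucrose arrays 1 and 2 gave 29.8 and 266.8. The groups did not overlap, and sucrose 2 stood far above sucrose 1. The log2 level was 3.64 ± 0.33 (SD, n = 2) in sorbitol and 6.48 ± 2.24 in sucrose, a change of 2.84 ± 0.96 SE (limma adjusted p = 0.177), with 1.02 in pair 1 and 4.65 in pair 2. Without sucrose 1 the change was 4.42, and without sucrose 2 it was 1.26. With the replicate number as a block the limma adjusted p was 0.00685, though the labels tie no batch to that number. Under the other settings with all 4 arrays it was at least 0.164.

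UGT73B4 (AT2G15490), the next gene on the chromosome, acts on the explosive trinitrotoluene and other foreign compounds. Its intensities were 1.1 and 1.9 on the sorbitol arrays, both below the control level, and 14.4 and 119.9 on sucrose 1 and 2. Thus it was also highest on sucrose 2, and its groups did not overlap. It was too dim in mean to be tested, and its change of 4.85 shrank to 2.16 with values below 9.3 raised to that level.

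UGT73B1 (AT4G34138) went the other way, with 23.2 and 15.5 in sorbitol and 2.4 and 7.5 in sucrose. Both sucrose values lay below the control level, so the change of -2.16 became -1.03 with dim values raised. UGT73C7, which conjugates phenylpropanoids in defence, had 3.8 and 12.4 in sorbitol and 10.0 and 37.5 in sucrose, and the groups overlapped. UGT73C1, known to act on cytokinins, had 0.7 and 12.4 against 4.0 and 34.4, again with overlap. UGT73C2 never exceeded 5.9, and its change of 1.05 was 0.00 with dim values raised. UGT73D1 exceeded the control level on sucrose 2 alone, with 25.4, and its change of 0.90 was 0.72 with dim values raised. Of the 7 genes of this family taken here, 6 had a higher mean in sucrose, beside 49.4% of all probe sets without the limit. The groups were apart upward for UGT73B4 and UGT73B5 and downward for UGT73B1. Shares apart upward and downward were 26.1% and 26.2% of tested probe sets, and 13.5% and 18% of those below the limit. Of the 7, only UGT73B5 was bright enough to be tested. The probe set shared by UGT73B2 and UGT73B3 is described near the end.

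Salicylic acid is conjugated by members of families 74 and 76. UGT76B1 (AT3G11340), which puts glucose on salicylic acid, isoleucic acid and N-hydroxypipecolic acid, had 5.3 and 13.2 in sorbitol and 14.8 and 641.4 in sucrose. Sucrose 1 barely exceeded sorbitol 2, so the difference rested mainly on sucrose 2. The log2 levels were 3.06 ± 0.93 and 6.61 ± 3.84 (SD, n = 2), the change 3.54 ± 1.61 SE (limma adjusted p = 0.278), and the changes by pair 1.48 and 5.60. Without sucrose 2 the change fell to 0.82, without sucrose 1 it was 6.26, and with dim values raised it was 3.14. A block for the replicate number gave a limma adjusted p of 0.00335, and the other settings with all 4 arrays gave at least 0.276.

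UGT74F1 (AT2G43840), a further salicylic acid glucosyltransferase, had 3.3 and 6.4 in sorbitol and 13.3 and 13.4 in sucrose. The groups were apart, but the sorbitol values lay below the control level, and the change of 1.54 was 0.52 with dim values raised. UGT76D1, which glucosylates dihydroxybenzoic acids, had 21.4 and 24.4 against 18.2 and 18.0, a change of -0.34 ± 0.38 SE (limma adjusted p = 0.670).

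Cytokinins receive N-linked glucose from a pair of neighbouring genes of family 76. UGT76C1 (AT5G05870) had 78.8 and 89.2 on the sorbitol arrays and 50.0 and 40.6 on the sucrose arrays. All 4 values lay well above the control level and the groups did not overlap. The change was -0.90 ± 0.32 SE (limma adjusted p = 0.187), with -0.66 in pair 1 and -1.14 in pair 2, and it did not pass. Its neighbour UGT76C2 (AT5G05860) had 32.3 and 30.1 against 3.0 and 18.2. Both sucrose values were lower, yet sucrose 1 alone was below the control level, and the gene was not tested.

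Of the auxin and abscisic acid enzymes, those bright enough to be tested also had lower means, and none passed. UGT74D1 (AT2G31750), which glucosylates auxin and its oxidised form, had 289.1 and 293.0 in sorbitol and 169.9 and 201.8 in sucrose. The 2 sorbitol arrays were close to each other and both sucrose arrays lay below them. The change was -0.65 ± 0.30 SE (limma adjusted p = 0.277). UGT71C5 (AT1G07240), an abscisic acid glucosyltransferase, had 138.4 and 104.0 against 95.9 and 64.8, a change of -0.61 ± 0.35 SE (limma adjusted p = 0.394) that was -0.32 without sucrose 2. UGT71B6 and UGT71B8, further enzymes of abscisic acid, and UGT84B1, an auxin glucosyltransferase, were too dim to be tested. UGT84B1 and its neighbour UGT84B2 stayed below the control level on every array.

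Genes of a list count as matched where the annotation gives them a probe set of their own under the listed symbol or locus. It leaves 8730 probe sets unlisted, puts several genes on 503 and gives some listed genes under other symbols. Values of some unmatched genes are given near the end, and the others were not analysed here. In the list of hormone-conjugating genes 10 of 18 were matched, and of the 4 tested 1 was higher (UGT76B1) and 3 were lower (UGT76C1, UGT74D1 and UGT71C5), none passing. The groups were apart upward in 1 of these 4 and downward in 3, beside 26.1% and 26.2% of all tested probe sets. The median of these 4 was -0.63, beside 0.02 over all tested probe sets. UGT76B1 was tested only because of its sucrose values (mean log2 3.06 in sorbitol). UGT76C2 was left out through its low sucrose mean (2.89).

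**Figure D2:**
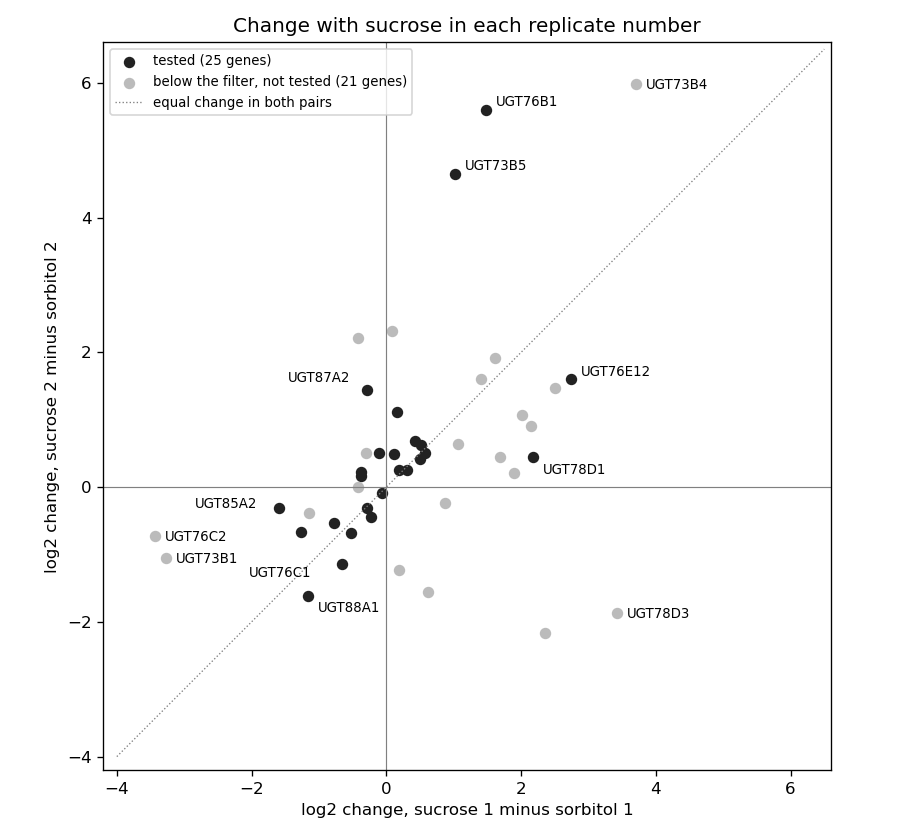
Log2 change of each gene in pair 1 (sucrose 1 minus sorbitol 1, horizontal) and pair 2 (sucrose 2 minus sorbitol 2, vertical); black points are the 25 tested genes, grey points the 21 below the limit, and the dotted line marks equal changes. UGT76B1, UGT73B5 and UGT73B4 lie above the line with larger changes in pair 2, UGT78D1 below it with 2.17 in pair 1 and 0.44 in pair 2, and UGT88A1 low in both.

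Flavonols receive their sugars from family 78 enzymes. UGT78D1 (AT1G30530), the flavonol 3-O-rhamnosyltransferase, had 109.9 and 197.0 in sorbitol and 493.3 and 266.4 in sucrose. Both sucrose arrays exceeded both sorbitol arrays, with sucrose 1 the highest. The log2 level was 7.20 ± 0.60 against 8.50 ± 0.63 (SD, n = 2), which is 2.46-fold, a change of 1.30 ± 0.45 SE (limma adjusted p = 0.182). A block for the replicate number gave a limma adjusted p of 0.0384, and the other settings with all 4 arrays gave at least 0.154. The change was 0.86 without sucrose 1. UGT78D2, the flavonoid 3-O-glucosyltransferase left out of the family here as an anthocyanin enzyme, had 72.1 and 134.8 against 537.4 and 459.1, a change of 2.33 (limma adjusted p = 0.0531). UGT78D3, a flavonol arabinosyltransferase, stayed between 0.3 and 3.2 on all 4 arrays, below the control level.

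UGT88A1 (AT3G16520), which acts on the flavonol quercetin in the test tube, had the smallest p of the 25 tested genes. It had 1604.1 and 1129.3 on the sorbitol arrays and 717.1 and 370.5 on the sucrose arrays. The groups were apart and sucrose 2 was lowest. The log2 level was 10.39 ± 0.36 in sorbitol and 9.01 ± 0.67 in sucrose (SD, n = 2), a change of -1.38 ± 0.41 SE (limma adjusted p = 0.143), with -1.16 in pair 1 and -1.61 in pair 2. Without sucrose 1 the change was -1.86 and passed at a limma adjusted p of 0.0424, and over 12 alternatives the limma adjusted p ran from 0.00831 to 0.493.

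None of the monolignol and hydroxycinnamate enzymes passed. UGT72E1 (AT3G50740), which glucosylates coniferyl and sinapyl aldehydes, had 240.2 and 61.7 in sorbitol and 268.6 and 133.9 in sucrose. Here the replicate 1 arrays were the high ones in both groups, and the groups overlapped (change 0.64 ± 0.68 SE, limma adjusted p = 0.654). The change was -0.34 without sorbitol 2 and 1.62 without sorbitol 1. UGT72B3 had the same order, with 85.1 and 29.7 against 114.0 and 47.5, and its change of 0.55 turned to -0.21 without sorbitol 2 and to -0.08 without sucrose 1. UGT72E2, which acts on monolignols, lay between 37.7 and 54.8 on all 4 arrays, with a change of 0.20 that was -0.07 without sucrose 2, while its near relative UGT72E3 exceeded the control level only on sucrose 2, with 12.4.

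UGT84A3 (AT4G15490), which makes glucose esters of hydroxycinnamic acids, had 54.0 and 59.8 in sorbitol and 81.0 and 85.2 in sucrose. The groups were apart and the pairs alike, at 0.58 and 0.51, but the change of 0.55 ± 0.30 SE did not pass (limma adjusted p = 0.367). Its neighbour UGT84A4 had 37.2 and 28.2 against 30.6 and 22.7, with overlap, and UGT84A1 never exceeded 2.3. Of 12 genes listed for phenylpropanoid conjugation 7 were matched and 4 tested. Of these, 3 were higher, beside 51.6% of all tested probe sets, and 1 lower, with a median of 0.38 beside 0.02. With 0 of the 4 passing, the shares over all tested probe sets were 0.366% called higher and 0.923% lower. Among the 3, UGT72E1 and UGT72E2 turned lower without 1 array, as given above. The listed UGT72B1 was not counted, since the annotation names it GT72B1. Its change was 1.16 (limma adjusted p = 0.156).

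Several genes differed little. UGT74B1 (AT1G24100), the S-glucosyltransferase of glucosinolate synthesis, had 464.2 and 446.4 against 573.7 and 531.8, groups apart by a change of 0.28 ± 0.29 SE (limma adjusted p = 0.638). UGT80B1 (AT1G43620), a sterol glucosyltransferase, had 57.3 and 47.2 against 61.8 and 66.2. UGT71B1 had 147.5 and 154.9 against 168.2 and 185.5, a change of 0.22 ± 0.29 SE. UGT71C4 had 381.6 and 196.4 against 295.2 and 221.7, where both sucrose values lay between the sorbitol values, and its change of -0.10 was 0.38 without sorbitol 1 and 0.11 without sucrose 2. None of these passed.

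The 5 genes of family 85 taken here were all tested, and 4 of them had a lower mean in sucrose, where 51.6% of all tested probe sets had a higher one. UGT85A2 (AT1G22360) had 71.6 and 45.7 in sorbitol and 23.6 and 36.9 in sucrose, and UGT85A5 (AT1G22370), its direct neighbour, had 28.9 and 36.9 against 12.0 and 23.2. Both genes were lower on both sucrose arrays and lowest on sucrose 1. Their changes were -0.95 ± 0.41 SE and -0.97 ± 0.46 SE (limma adjusted p = 0.256 and 0.297), and without sucrose 1 they were -0.63 and -0.49. Without sorbitol 1 the change of UGT85A2 was also -0.63. UGT85A3, the next gene of the same chromosomal cluster, had 14.2 and 18.1 against 20.1 and 24.2, higher on both sucrose arrays with a change of 0.46 ± 0.40 SE (limma adjusted p = 0.568). UGT85A7, at the other end of the cluster, lay between 20.9 and 23.8 on all arrays, and UGT85A4, which lies elsewhere, had a change of -0.07 that turned to 0.58 without sorbitol 1 and to 0.28 without sucrose 2.

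**Figure D3:**
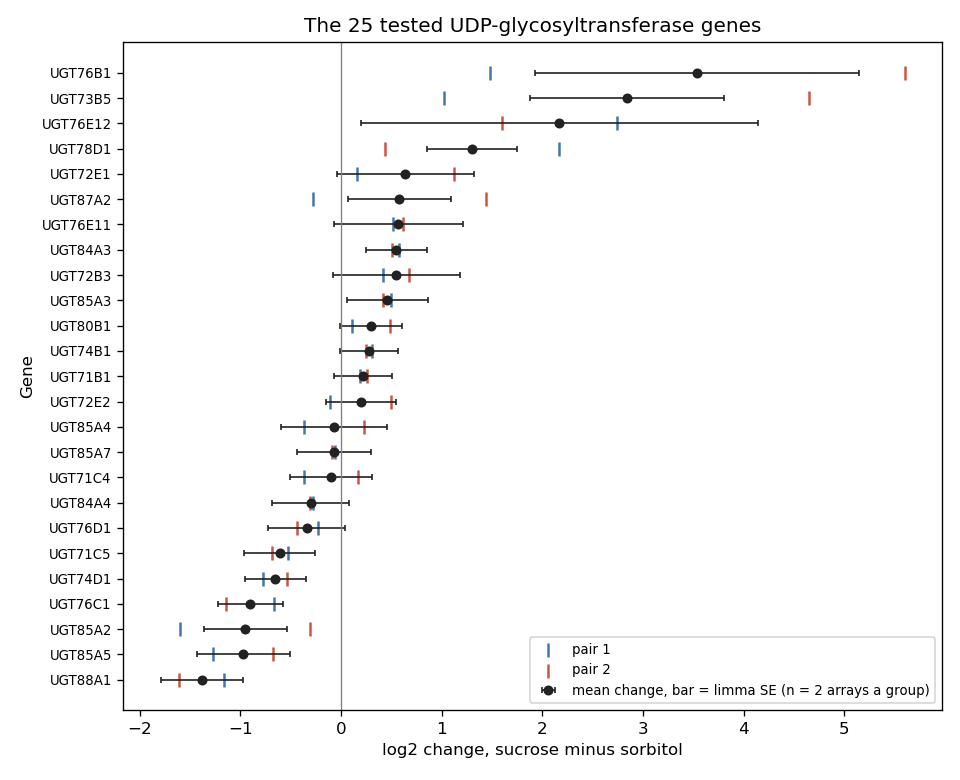
Log2 change (sucrose minus sorbitol) of the 25 tested genes in order of size; black points are means with limma standard errors (n = 2 arrays a group), blue and red ticks the changes in pair 1 and pair 2. The 4 highest means, of UGT76B1, UGT73B5, UGT76E12 and UGT78D1, go with pair values that differ by more than 1 log2 unit, whereas the pair values of UGT84A3 and UGT74B1 nearly coincide.

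The replicate number weighed heavily on some members. UGT76E12 (AT3G46660) had 4.5 on sorbitol 1 against 193.2 on sorbitol 2, and 30.1 on sucrose 1 against 585.9 on sucrose 2. Replicate 2 exceeded replicate 1 by 5.42 log2 units in sorbitol and by 4.28 in sucrose, more than the sugars differed within either number (2.74 in pair 1, 1.60 in pair 2). The change of 2.17 ± 1.97 SE had a limma adjusted p of 0.589 and the groups overlapped. Without sorbitol 1 the change turned to -0.54, and without sucrose 2 it was 0.03. Its limma adjusted p was 9.76e-04 with the replicate number as a block, and at least 0.548 under the other settings with all 4 arrays. UGT76E11 (AT3G46670), with 1 gene between them, had 69.5 and 180.8 against 99.6 and 278.7, and was also higher on the replicate 2 array of each group. Its change of 0.57 turned to -0.17 without sucrose 2 and to -0.12 without sorbitol 1.

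UGT87A2 (AT2G30140), known from the control of flowering time, had 363.5 and 313.5 in sorbitol and 300.1 and 852.7 in sucrose. Sucrose 1 was the lowest of the 4 and sucrose 2 the highest, with -0.28 in pair 1 and 1.44 in pair 2. The change of 0.58 ± 0.51 SE did not pass (limma adjusted p = 0.576) and was -0.17 without sucrose 2.

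Among tested genes 8 of 25 were higher on the replicate 2 array in both groups, where 23.1% of all tested probe sets were, and among dim genes 13 of 21, where 39.2% of probe sets below the limit were. Sucrose 2 held the highest value for 10 of the 25 tested genes, beside 24.1% of all tested probe sets. The list of genes known to be induced by pathogens or oxidative stress had 7 of 10 members matched and 4 tested. All 4 were higher in mean, beside 51.6% of all tested probe sets, with a median of 1.38 and 0 passing. The groups were apart upward in 2 of them, beside 26.1%. The brightness limit shaped this count. UGT73B5 passed it only through sucrose (mean log2 3.64 in sorbitol, 6.48 in sucrose). UGT73B1 was left out through its low sucrose mean (4.25 in sorbitol, 2.08 in sucrose). UGT73B4 was left out through its low sorbitol mean (0.53 in sorbitol, 5.38 in sucrose). The list was also chosen with earlier results of these data known, so no conclusion is drawn from the count. Without sucrose 2 the change of UGT76E12 was 0.03 and that of UGT87A2 -0.17. Of the untested genes, UGT73B1 was lower and UGT73B4 higher on both sucrose arrays. The summed intensity of the list was 555.3 and 695.1 on sorbitol 1 and 2, 545.6 on sucrose 1 and 2043.7 on sucrose 2. Only the last of these stood apart.

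**Figure D4:**
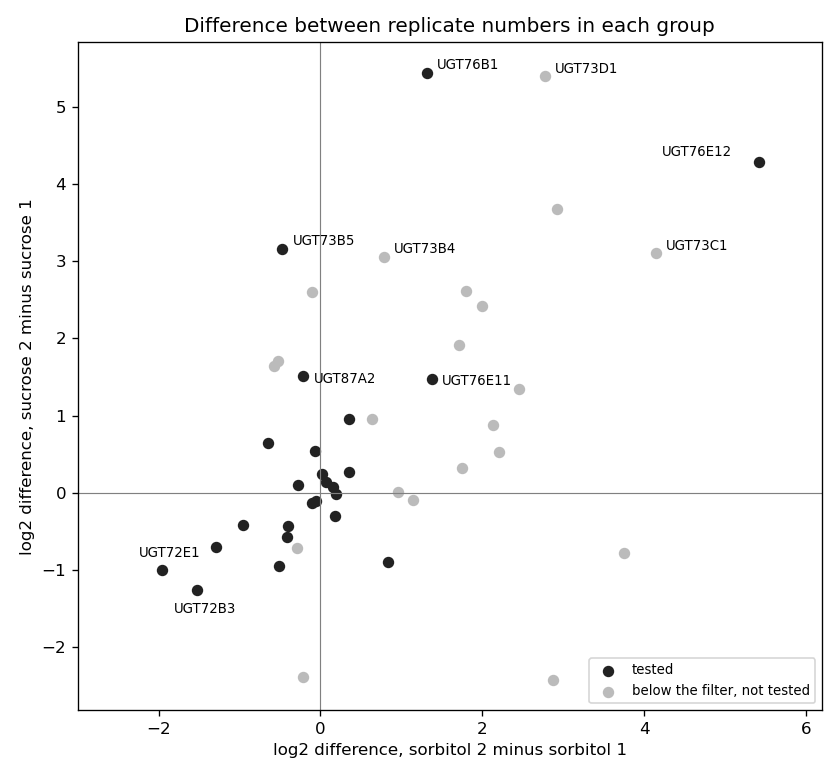
Log2 difference between the replicate 2 and replicate 1 arrays in sorbitol (horizontal) and in sucrose (vertical) for each gene, black where tested and grey where below the limit. UGT76E12 lies far to the upper right, with 5.42 and 4.28, while UGT73B5 and UGT76B1 are high in sucrose, at 3.16 and 5.44, and at -0.47 and 1.32 in sorbitol.

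Sucrose 2 also differed in a measure of RNA quality, by the older GAPDH control only. The 3 prime minus 5 prime log2 difference of that control was smallest there, at 0.20, against 1.85, 1.44 and 1.43 on sorbitol 1, sorbitol 2 and sucrose 1. The newer GAPDH control gave -0.01 on sucrose 2, close to 0.04 on sorbitol 1, against 0.33 on sorbitol 2 and 0.15 on sucrose 1. The 25S ribosomal RNA control followed the replicate number, at 2163.2 and 1255.2 on sorbitol 1 and sucrose 1 and at 14.4 and 56.6 on the replicate 2 arrays. The part of these differences in the values of UGT76B1, UGT73B5, UGT76E12 and UGT87A2 was not tested. Of 11 mesophyll markers rubisco activase RCA was matched, with 3833.5 and 3154.9 in sorbitol and 1546.8 and 835.5 in sucrose (limma adjusted p = 0.0941), and the root marker EXPA7 lay between 3.4 and 20.8. Of 5 guard cell markers 2 were matched, with a summed intensity of 154.5 and 134.8 in sorbitol and 66.1 and 53.9 in sucrose. AT1G22690 had a change of -2.16 (limma adjusted p = 0.0601) and FMA one of -0.33 (limma adjusted p = 0.643). Markers of epidermis, phloem, xylem, flower and senescence were not analysed here. The part of these shifts in the results above was not tested.

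Many of the genes stand side by side on the chromosomes. By gene order in the TAIR10.1 annotation, 29 of the 46 fell into 12 groups with at most 2 other protein-coding genes between members, and 14 of the 17 neighbouring pairs were directly adjacent. In 6 of these pairs both genes were tested, and their mean changes had the same sign in 4 and opposite signs in 2. Of the 4, UGT71C5 with UGT71C4 and UGT85A7 with UGT85A2 each held a change near 0 (-0.10 for UGT71C4, -0.07 for UGT85A7). UGT76E12 and UGT76E11 were both higher but turned to -0.54 and -0.12 without sorbitol 1. UGT85A2 and UGT85A5 were both lower, at -0.95 and -0.97. The opposite pairs were UGT85A5 with UGT85A3, and UGT84A3 with UGT84A4. UGT73B5 and UGT73B4, by contrast, were both highest on sucrose 2.

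Among the 21 genes below the limit, the sucrose values were both the higher ones for 7, or 33.3%, against 13.5% of all probe sets below the limit, and both the lower ones for 2 (UGT73B1 and UGT76C2), or 9.52%, against 18%. Of the 7 higher genes, UGT84A1 and UGT84B1 never reached the control level, and UGT71B5, UGT71C2 and UGT72E3 exceeded it on 1 array each. UGT73B4 and UGT74F1 exceeded it on both sucrose arrays and on neither sorbitol array. UGT71C1, UGT71C3 and UGT76E2 had differences of opposite sign in the 2 pairs, and UGT76E1 stayed between 0.3 and 1.6.

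Genes that supply the donor sugar or the acceptors, or that remove the sugar again, gave few tested values. USP, a UDP-sugar pyrophosphorylase, was the 1 matched gene of 23 listed for UDP-sugar supply, with 147.3 and 151.5 against 157.4 and 181.6 and a change of 0.18 ± 0.29 SE. Of 18 genes for phenylpropanoid acceptors, ALDH2C4, which makes ferulic and sinapic acids, had a change of 0.55 ± 0.31 SE, and HCT, of the shikimate ester route, had -0.26 ± 0.33 SE. Beta-glucosidases, the enzyme class that splits glucosides, had 20 matched genes and 7 tested, 3 higher and 4 lower with a median of -0.53 and 0 passing. Over all tested probe sets 51.6% were higher, the median was 0.02, and 0.366% were called higher and 0.923% lower. The groups were apart upward in 2 of the 7 and downward in 3, beside 26.1% and 26.2%. Of the 3 higher, BGLU15 changed by only 0.02. BGLU40 had 294.1 and 414.9 in sorbitol and 125.2 and 151.7 in sucrose, clearly apart, with a change of -1.34 ± 0.33 SE (limma adjusted p = 0.10). BGLU16 was lower too, with 231.3 and 236.3 against 70.3 and 157.2, groups apart and a change of -1.15 ± 0.44 SE (limma adjusted p = 0.21). BGLU25 had 169.5 and 362.7 against 392.3 and 1045.6, also apart but higher, with a change of 1.37 ± 0.58 SE (limma adjusted p = 0.252). BGLU27, BGLU46 and BGLU24 were too dim to be tested, and their changes of 2.92, 2.83 and 2.50 were 0.49, 0.15 and 0.00 with dim values raised.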

How the data were processed

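RNA levels were measured on 4 Affymetrix ATH1 arrays, 2 from leaves fed sorbitol and 2 from leaves fed sucrose, grouped by their titles. Per the labels' protocols, TRIzol RNA was used and 10 µg was biotin-labelled. Deposited values were linear intensities, 1 for each probe set on each array, which the authors made with MAS5 per the submitters' processing notes; version, settings and detection calls are not given in the sources used here. Each array had a 2% trimmed mean of 100.0, so the values were not scaled again.

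The 64 control probe sets were left out of the tests, and intensities were floored at 0.1 and put on a log2 scale (93 zero values in 22746 probe sets, 0 among those tested). The 13648 probe sets at or above the 40th percentile of mean log2 value were fitted with limma 3.58.1 in R 4.3.3 (lmFit, eBayes with trend), with Benjamini-Hochberg adjustment over all of them and a threshold of 0.05. The fit was tested on simulated data of independent arrays. These held no effect shared by arrays of the same number, so they do not check the fit under the correlation of 0.43 given below.

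Names came from the platform annotation, and all 46 matched the same symbol in TAIR10.1, used for gene order only since the array's build was not stated. Genes were named if past the threshold with or without a replicate block, among the 8 largest rises or falls with groups apart, brightest of a family or among the 4 smallest p of a list; the other members were named after their values were seen. Members and lists were chosen with earlier results of these data known. Alternatives were other filters (none, 60th percentile), a pseudocount of 5.3 (the 20th percentile), dim values raised to 9.3, quantile or median scaling, no trend, a replicate block and each array left out.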

Additional observations from a re-analysis of the deposited data

Results flagged for a closer look

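The probe set shared by UGT73B2 and UGT73B3 belonged to no single gene and entered no comparison of the family. It had intensities of 545.4 and 567.2 on sorbitol 1 and 2, and of 614.6 and 1152.5 on sucrose 1 and 2. It drew attention because it lay outside the comparison and yet both sucrose values exceeded both sorbitol values, with a log2 change of 0.60. Most of that difference lay on sucrose 2, the array on which UGT73B4 and UGT73B5 were also highest, and the change did not pass (limma adjusted p = 0.439).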

How the results depend on the processing

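Nothing in the labels ties a replicate number to a common batch. Arrays with the same number deviated from their group means with a correlation of 0.43, and 2 pairs do not settle the pairing. With the replicate number as a block, 4 members were called higher (UGT73B5, UGT76B1, UGT76E12 and UGT78D1) and 1 lower (UGT88A1) of 25, and over all probe sets 1130 higher (8.28%) and 1206 lower (8.84%). The counts of members called stayed at 0 under the other filters, scalings and low-value settings, and ran from 0 to 2 higher and from 0 to 1 lower without 1 array. Over all probe sets, calls higher and lower (50 and 126) were 1 and 2 with no filter, 26 and 77 without the trend, 22 and 72 after quantile scaling, 83 higher under the 60th percentile filter and 196 lower with median centring. Without 1 array they ran from 0 to 403 higher and from 0 to 545 lower. In such fits the lone array of a group is assumed to vary like the other group. The members' median of 0.22 ran from -0.12 to 0.23 without 1 array. Of the 25 tested members, 17 kept their sign under every setting run. The settings for UGT72B3, UGT72E2, UGT84A4, UGT85A4, UGT85A7 and UF3GT were added after seeing the data. The others turned without 1 array: UGT71C4 ran from -0.58 to 0.38, UGT72B3 from -0.21 to 1.31, UGT72E1 from -0.34 to 1.62, UGT72E2 from -0.07 to 0.47, UGT76E11 from -0.17 to 1.31, UGT76E12 from -0.54 to 4.88, UGT85A4 from -0.72 to 0.58 and UGT87A2 from -0.17 to 1.34. The cause was not tested. A mean over probe sets was not run, since each member had a single one. Signal near the control level limits the 21 dim members.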

Other observations

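Genes of the same enzyme class that the annotation lists under other symbols gave further values. GT72B1 (AT4G01070), which conjugates chlorinated phenols and anilines, had 232.9 and 273.6 on the sorbitol arrays and 429.1 and 738.5 on the sucrose arrays, higher on both. The log2 change was 1.16 with an SE of 0.37, and limma's adjusted p was 0.156. UF3GT (AT5G54060), which adds xylose to anthocyanins, had 19.4 and 44.7 in sorbitol against 456.7 and 365.8 in sucrose. It rose by 3.79 log2 units (limma adjusted p = 0.0319), but missed the threshold without either sorbitol array and with no filter (limma adjusted p = 0.0849). The change was 3.19 without sorbitol 1 and 4.40 without sorbitol 2. With the replicate number as a block the limma adjusted p was 3.52e-05. SGT (AT3G07020), a sterol glucosyltransferase, lay between 102.7 and 114.3 on all 4 arrays, and AT5G54010 never exceeded 0.7. The probe set shared by UGT71D1 and AT2G29710 had 38.7 and 46.1 in sorbitol against 27.5 and 22.1 in sucrose. That shared by UGT89B1 and AT1G73885 had 117.0 and 127.7 against 112.3 and 219.4, with overlap and with sucrose 2 the highest.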
